A study of Mus musculus with 10 samples.

Results

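The Schlafen genes are a family of mammalian genes named after the German word for sleep, because the founding members slowed the growth of thymocytes. The mouse family has short, intermediate and long proteins, and the long ones carry a helicase-like region at their end. Several members are induced by type I interferon, and in mouse T cells Slfn2 binds transfer RNA and shields it from cleavage. Members were taken by symbol: Slfn1, Slfn2, Slfn4, Slfn5, Slfn8 and Slfn9. Of these 6 symbols, 5 are listed in the count table, under 7 of its 19178 gene identifiers. Slfn1 is not listed there, so only the bases before its start were examined. Slfn2 and Slfn8 each stand under 2 identifiers, of which only 1 is in the GENCODE M21 annotation of the mouse genome (build GRCm38). That one is called the annotated identifier below and the other, which the deposited FPKM table alone pairs with the symbol, the additional identifier.

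Dendritic cells present antigen to T cells, and poly(A) RNA of such mouse cells was sequenced in 10 libraries. In 5 of them the dendritic cells are labelled Ptbp1-deficient, and in the other 5 they are wild type (WT). Ptbp1 encodes an RNA-binding protein that restrains the use of many exons. All mice were 8 to 10 weeks old, and the labels used here give neither the tissue the cells came from, nor sex, strain, nor the cell type or promoter behind the deficiency. Whether the libraries of a group are from different animals is not stated either, so the p-values reflect only how far these libraries spread.

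Total gene counts ran between 61759378 and 92697815 in Ptbp1-deficient libraries, against 50516163 to 66153758 in WT libraries. Ptbp1 itself stood at 74.4 ± 1.08 CPM (counts scaled to a common library size) in Ptbp1-deficient libraries and 294 ± 21.1 CPM in WT libraries (SD, n = 5 each), which is 25.3% of the WT level (edgeR adjusted p = 1.9e-09). Dendritic cell markers were abundant in both groups, and of 8 such markers 2 rose and 2 fell. Itgax, which encodes CD11c, averaged 2168 and 1521 CPM in Ptbp1-deficient and WT libraries and was among those that rose (edgeR adjusted p = 8.9e-05). Flt3, the receptor for a growth factor of these cells, averaged 558 and 605 CPM and was not called (edgeR adjusted p = 0.17). Across all 18248 genes tested, 21.9% were called higher and 23.1% lower in Ptbp1-deficient cells at an adjusted p under 0.05 (45.0% in either direction), and the median log2 fold change was -0.03. Markers of other cells differed too. Of 14 macrophage markers 11 fell, and their summed level was 495 to 1236 CPM in Ptbp1-deficient libraries, against 1646 to 4652 CPM in WT libraries. Of 8 markers of type 1 conventional dendritic cells 7 rose, and 8 of 8 of type 2 conventional dendritic cells fell. Of 11 NK cell markers 7 rose and 1 fell (summed level 179 to 252 CPM in Ptbp1-deficient libraries, against 119 to 147 CPM in WT libraries). Klrd1, the NK cell marker that fell, averaged 76.7 and 94.0 CPM in Ptbp1-deficient and WT libraries and made up most of that sum in WT libraries. Of 12 B cell markers 10 fell (428 to 505 CPM, against 356 to 1879 CPM), as did 5 of 8 plasmacytoid dendritic cell markers (207 to 248 CPM, against 264 to 604 CPM). Ighm, which was not called, averaged 374 and 478 CPM in Ptbp1-deficient and WT libraries, most of the B cell marker sum. Of 13 T cell markers only Cd4 was called, and it fell, averaging 248 and 333 CPM in Ptbp1-deficient and WT libraries. Cd4 made up most of the T cell marker sum (283 to 320 CPM, against 338 to 433 CPM), so that sum says little of the other T cell markers. In bulk RNA, a changed share of cells and a changed RNA level per cell cannot be told apart, and the part of these markers in the Schlafen values was not tested.

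The members lie in a cluster of 10 annotated Schlafen genes on chromosome 11, from 82942341 to 83286726 in GRCm38 (344 kb). The 250 bases before the start of a gene are shown for the 3 members that hold a match to the core of the interferon-stimulated response element, and for Slfn2 as a member without one. They are RefSeq sequences of GRCm38.p6, read 5′ to 3′ on the strand of the gene, from chr11:82951852-82952101 (plus strand) for Slfn5, chr11:82991831-82992080 (minus) for Slfn9, chr11:83020811-83021060 (minus) for Slfn8 and chr11:83064862-83065111 (plus) for Slfn2. Capitals mark the match to GAAANNGAAA on either strand.
Slfn5: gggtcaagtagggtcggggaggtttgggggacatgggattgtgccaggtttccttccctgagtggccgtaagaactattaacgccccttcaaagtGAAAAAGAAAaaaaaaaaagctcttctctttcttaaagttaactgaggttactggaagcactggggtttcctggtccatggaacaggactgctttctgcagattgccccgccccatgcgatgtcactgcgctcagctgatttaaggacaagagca
Slfn9: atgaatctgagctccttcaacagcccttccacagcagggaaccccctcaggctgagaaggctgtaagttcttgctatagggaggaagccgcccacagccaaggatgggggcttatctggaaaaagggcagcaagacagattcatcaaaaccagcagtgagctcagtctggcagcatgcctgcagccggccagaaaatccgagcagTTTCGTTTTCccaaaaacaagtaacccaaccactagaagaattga
Slfn8: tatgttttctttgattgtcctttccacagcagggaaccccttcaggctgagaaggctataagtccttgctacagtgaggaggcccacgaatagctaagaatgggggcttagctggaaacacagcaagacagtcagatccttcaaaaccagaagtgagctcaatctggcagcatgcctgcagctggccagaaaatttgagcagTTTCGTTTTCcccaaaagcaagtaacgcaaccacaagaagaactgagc
Slfn2: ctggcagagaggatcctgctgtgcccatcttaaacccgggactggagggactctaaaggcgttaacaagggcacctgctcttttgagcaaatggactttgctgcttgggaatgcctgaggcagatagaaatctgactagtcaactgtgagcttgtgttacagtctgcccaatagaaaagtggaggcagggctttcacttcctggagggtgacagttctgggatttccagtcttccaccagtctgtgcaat
The match begins 155 bases before the start in Slfn5, where it reads on the strand of the gene and runs into a stretch of A, 45 bases before it in Slfn9 and 48 bases before it in Slfn8, where it reads on the opposite strand. RefSeq gives Slfn8 a further start, before which the same match begins at 136 bases. The RefSeq start of Slfn5 lies downstream of the first base of the gene in GENCODE M21, so the 250 bases shown for Slfn5 lie within that annotated gene. Slfn9 and Slfn8 have the same 10 letters there, and their 250 bases were identical at 204 of 255 aligned positions (80.0%), whereas the other pairs of windows were 42.9% to 51.1% identical. A match was present in 3 of 6 members, in 936 of the 27025 genes with such a window (3.46%) and in 15 of 28 interferon-stimulated genes with one. The core of the gamma-activated site, TTCNNNGAA on either strand, was in 0 of 6 members, in 8.13% of all genes and in 8 of the 28 interferon-stimulated genes. These matches describe the letters only.

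In the counts, 2 of the 7 Schlafen identifiers rose in Ptbp1-deficient cells (the additional Slfn2 identifier and Slfn9), where 21.9% of all genes tested rose, and 1 fell (the additional Slfn8 identifier), where 23.1% of all genes fell. All 7 passed the filter on low counts. The groups did not overlap for 1 identifier, the additional Slfn2 identifier, whereas 33.4% of all genes tested had groups that did not overlap (17.2% higher and 16.2% lower in Ptbp1-deficient cells). The counts of calls are near these backgrounds or below, so they say nothing particular of the family, and its members differed among themselves.

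**Figure D1:**
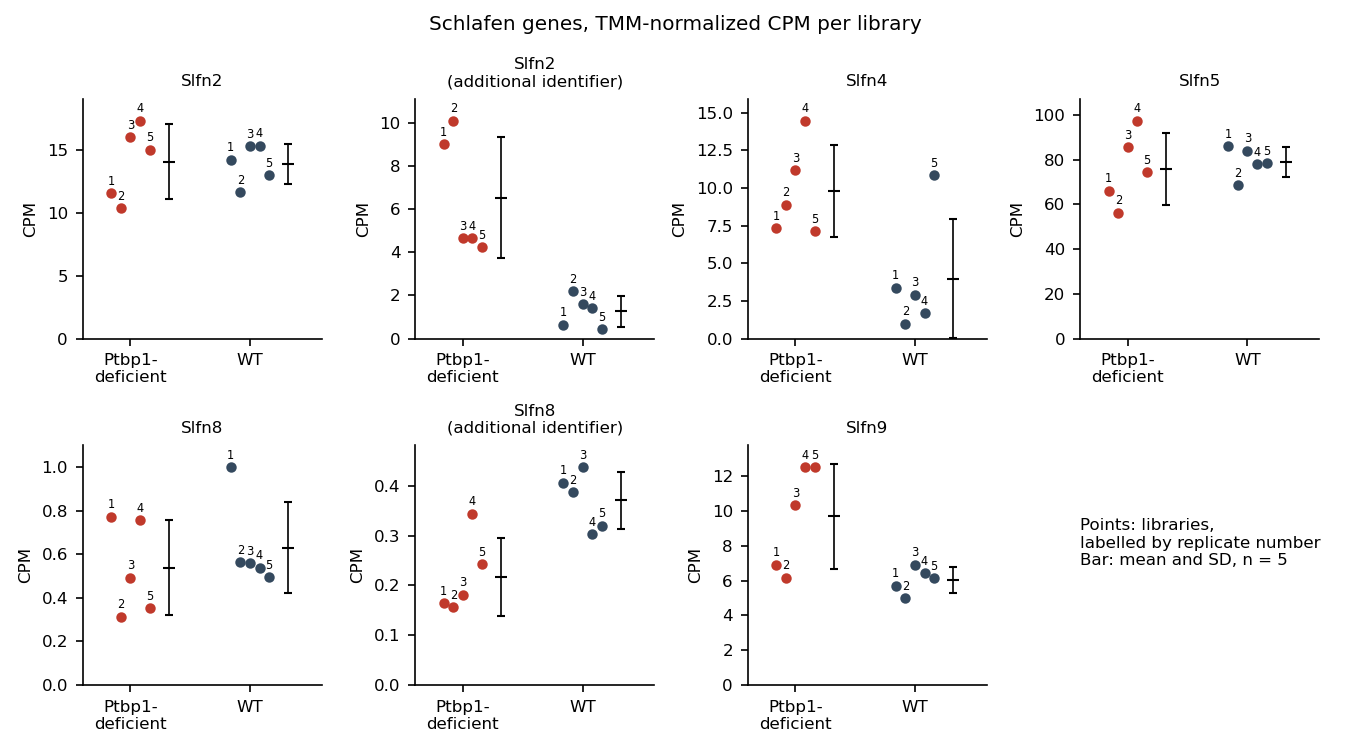
CPM of the 7 Schlafen identifiers in each library (points, labelled by replicate number), with the mean and SD of each group (bars, n = 5). Ptbp1-deficient libraries lie above all WT libraries for the additional Slfn2 identifier, while the groups overlap for the other 6.

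Slfn2, the short member that protects transfer RNA in T cells, gave different answers on its 2 identifiers. The annotated identifier (ENSMUSG00000072620, chr11:83065112-83070678, plus strand) had 11.6, 10.4, 16.1, 17.4 and 15.1 CPM in Ptbp1-deficient replicates 1 to 5, against 14.3, 11.7, 15.3, 15.4 and 13.0 CPM in WT replicates 1 to 5. The groups overlap, with Ptbp1-deficient replicates 1 and 2 below every WT library and replicates 3 and 4 above. The means were 14.1 ± 2.97 and 13.9 ± 1.59 CPM in Ptbp1-deficient and WT cells, and the log2 fold change was 0.02 with a 95% interval of -0.29 to 0.32 (edgeR adjusted p = 0.93). The additional identifier (ENSMUSG00000116022) had 9.03, 10.1, 4.66, 4.67 and 4.23 CPM in Ptbp1-deficient replicates 1 to 5, against 0.640, 2.21, 1.58, 1.40 and 0.447 CPM in WT replicates 1 to 5. Each Ptbp1-deficient library exceeded every WT library, and here replicates 1 and 2 are the highest. The rise was 5.22-fold (log2 2.38, SE 0.42; edgeR adjusted p = 0.00071), on 28 to 646 counts per library.

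The share of Slfn2 counts assigned to the additional identifier was 43.7%, 49.3%, 22.5%, 21.2% and 21.9% in Ptbp1-deficient replicates 1 to 5, against 4.30%, 15.9%, 9.37%, 8.32% and 3.32% in WT replicates 1 to 5. The lowest Ptbp1-deficient share had a 95% Wilson interval of 19.4% to 23.1%, and the highest WT share one of 13.4% to 18.8%. Such intervals cover counting error only. Means were 31.7% ± 13.7 and 8.25% ± 5.01 in Ptbp1-deficient and WT cells (SD, n = 5 each), with a two-sided exact permutation p of 0.00794, the smallest that 5 against 5 libraries can give (0.016 after adjustment over 4 such shares).

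Summed over both identifiers, Slfn2 rose. The sum was 20.5, 20.5, 20.7, 22.0 and 19.3 CPM in Ptbp1-deficient replicates 1 to 5, against 15.1, 13.9, 16.8, 16.7 and 13.6 CPM in WT replicates 1 to 5. Every Ptbp1-deficient library was above every WT library, and the libraries of a group lay close together. The SD was 4.70% of the mean in Ptbp1-deficient cells and 10.1% in WT cells for the sum, against 21.1% and 11.4% for the annotated identifier and 42.8% and 57.3% for the additional one. The change of the sum was 1.35-fold (log2 0.44, SE 0.073; edgeR adjusted p = 0.0005). With counts summed by symbol, Slfn2 and Slfn9 were called higher and the other 3 members were not called, where 21.6% of all symbols rose and 23.8% fell (45.4% in either direction). Summing was chosen after the data were seen.

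In the deposited FPKM values, which scale fragments by gene length and library size, the annotated identifier did differ. It had 37.1, 37.5, 36.8, 38.5 and 34.6 FPKM in Ptbp1-deficient replicates 1 to 5, against 29.0, 27.2, 32.3, 30.8 and 25.4 FPKM in WT replicates 1 to 5. No library of one group lies within the range of the other, and replicates 1 and 2 no longer stand below 3 to 5. The log2 fold change on the scale of log2(FPKM + 1) was 0.35 (SE 0.066; limma adjusted p = 0.0015). The additional identifier averaged 22.6 ± 3.19 FPKM in Ptbp1-deficient cells and 14.6 ± 1.75 FPKM in WT cells, again without overlap (0.59, SE 0.10; limma adjusted p = 0.00088), and the sum of both 59.5 ± 4.12 and 43.5 ± 4.40 FPKM (0.45, SE 0.076; limma adjusted p = 0.00076). The additional identifier held 37.8% ± 2.90 of the summed FPKM in Ptbp1-deficient cells and 33.5% ± 1.18 in WT cells (exact permutation p = 0.00794, adjusted 0.016), a far smaller difference than in the counts. Of the 6 Schlafen identifiers with FPKM, 3 were called higher, both of Slfn2 and Slfn9, where 20.2% of all 11968 identifiers were called higher, 27.1% lower and 47.3% in either direction. With FPKM summed by symbol, Slfn2 and Slfn9 were the ones called, where 20.2% of all symbols were called higher, 27.2% lower and 47.4% in either direction.

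**Figure D2:**
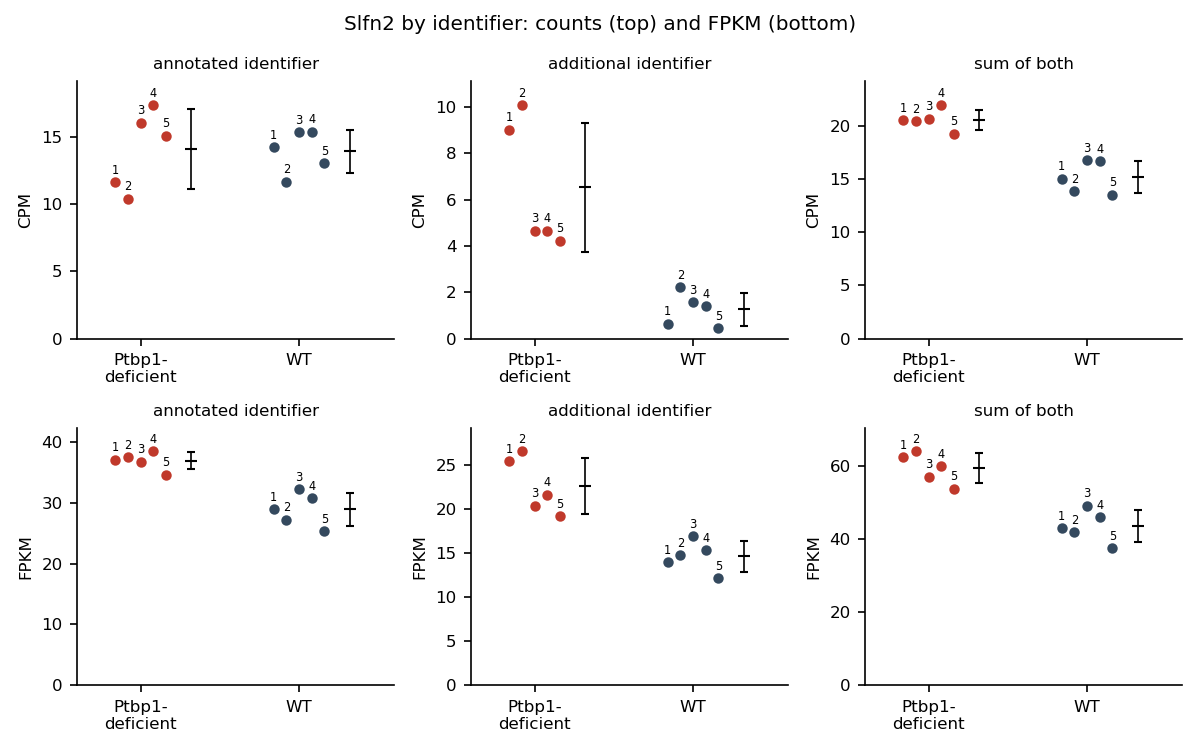
Slfn2 in each library by identifier, as CPM from the counts (top) and as deposited FPKM (bottom), with replicate numbers and the mean and SD of each group (n = 5). The groups overlap in CPM of the annotated identifier and are apart in the other 5 panels.

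Slfn9, a long member, rose. Its identifier ENSMUSG00000069793 (chr11:82978390-82991830, minus strand) had 6.90, 6.16, 10.3, 12.5 and 12.5 CPM in Ptbp1-deficient replicates 1 to 5, against 5.70, 5.00, 6.91, 6.42 and 6.12 CPM in WT replicates 1 to 5. Replicates 3, 4 and 5 of the Ptbp1-deficient cells lie above every WT library, and replicates 1 and 2 lie within the WT range. The change was 1.61-fold (log2 0.68, SE 0.20; edgeR adjusted p = 0.014). In FPKM it had 2.22, 2.21, 2.29, 2.93 and 2.60 in Ptbp1-deficient replicates 1 to 5, against 1.33, 1.32, 1.46, 1.57 and 1.61 in WT replicates 1 to 5. Here the groups did not overlap (log2 0.49 on the log2(FPKM + 1) scale, SE 0.067; limma adjusted p = 0.00021). Of the stretches of 150 bases, the read length, in Slfn9 transcripts, 1.46% also occur in the pseudogene Slfn10-ps, which the count table does not list. The macrophage marker sum was 514 and 495 CPM in Ptbp1-deficient replicates 1 and 2 and 1079 to 1236 CPM in replicates 3 to 5. Its part in the spread of the CPM of Slfn9, Slfn5 and the annotated Slfn2 identifier was not tested.

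Slfn5, a long member that type I interferon induces in mouse and human cells, was not called. It (ENSMUSG00000054404, chr11:82951349-82964840, plus strand) had 66.1, 56.3, 85.6, 97.4 and 74.4 CPM in Ptbp1-deficient replicates 1 to 5, against 86.1, 68.5, 84.0, 77.9 and 78.4 CPM in WT replicates 1 to 5. The Ptbp1-deficient libraries spread around the WT ones, again with replicates 1 and 2 lowest. Means were 75.9 ± 16.1 and 79.0 ± 6.87 CPM in Ptbp1-deficient and WT cells, and the log2 fold change was -0.06 with a 95% interval of -0.33 to 0.22 (edgeR adjusted p = 0.75). FPKM gave 16.3 ± 2.87 in Ptbp1-deficient cells and 17.9 ± 1.96 in WT cells (log2 -0.13; limma adjusted p = 0.35). An antisense gene, Slfn5os, overlaps Slfn5 and shares 5.46% of its stretches of 150 bases. As no source used here says whether strand was used in counting, reads of both from the shared stretches cannot be told apart. Slfn5os is not listed in the count table.

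Slfn8, the long member next to Slfn9, had few counts, 20 to 66 per library on its annotated identifier (ENSMUSG00000035208, chr11:83002158-83020810, minus strand). It had 0.773, 0.313, 0.492, 0.757 and 0.352 CPM in Ptbp1-deficient replicates 1 to 5, against 0.999, 0.562, 0.558, 0.538 and 0.495 CPM in WT replicates 1 to 5. The groups overlap (log2 fold change -0.23, 95% interval -0.91 to 0.45; edgeR adjusted p = 0.58). Its additional identifier (ENSMUSG00000115953), on 10 to 30 counts, had 0.164, 0.156, 0.181, 0.344 and 0.242 CPM in Ptbp1-deficient replicates 1 to 5, against 0.406, 0.388, 0.437, 0.303 and 0.320 CPM in WT replicates 1 to 5. In 4 of the 5 Ptbp1-deficient libraries it was below every WT library, and it was called lower (log2 -0.75, SE 0.27; edgeR adjusted p = 0.043). That call was lost when any of 8 of the 10 libraries was left out, in DESeq2 (adjusted p = 0.083) and in the deposited FPKM (log2 -0.17; limma adjusted p = 0.38). Summed over both identifiers, Slfn8 stood at 0.753 ± 0.257 CPM in Ptbp1-deficient cells and 1.00 ± 0.244 CPM in WT cells, a difference that was not called (edgeR adjusted p = 0.22). The share of its counts on the additional identifier was 30.0% ± 8.55 and 37.8% ± 5.73 in Ptbp1-deficient and WT cells (exact permutation p = 0.119, adjusted 0.16).

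Slfn4, an intermediate member expressed in monocytes and macrophages of the mouse, was not called with all libraries, and that verdict depended on WT replicate 5 and on the fit. It (ENSMUSG00000000204, chr11:83175186-83190216, plus strand) had 7.35, 8.90, 11.2, 14.5 and 7.12 CPM in Ptbp1-deficient replicates 1 to 5, against 3.39, 0.988, 2.93, 1.70 and 10.9 CPM in WT replicates 1 to 5. Replicate 5 of WT stood within the Ptbp1-deficient range, and the other 4 WT libraries lay below every Ptbp1-deficient one. The log2 fold change was 1.30 (SE 0.52; edgeR adjusted p = 0.058), which was not called. Without WT replicate 5 it was 2.11 (edgeR adjusted p = 0.00025), and without WT replicates 1 and 5 it was 2.37 (edgeR adjusted p = 0.00018). With all libraries and the replicate number as a block it was 1.73 (edgeR adjusted p = 0.035), although the numbers did not pair the libraries. Of 12 monocyte and neutrophil markers 4 fell, where 23.1% of all genes tested fell. Their summed level was 228 to 357 CPM in Ptbp1-deficient libraries, against 1303 CPM in WT replicate 5 and 380 to 537 CPM in the other WT libraries. That of the macrophage markers was also highest in WT replicate 5, at 4652 CPM. So were the B cell marker sum, at 1879 CPM against 356 to 664 CPM in the other WT libraries, and the plasmacytoid dendritic cell marker sum, at 604 CPM against 264 to 343 CPM. Their part in the Slfn4 values was not tested. Slfn4 is not listed in the deposited FPKM table.

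Slfn3, an intermediate Schlafen gene beside Slfn4 that is not among the members, rose 2.21-fold (log2 1.14, SE 0.28; edgeR adjusted p = 0.0065). It averaged 0.916 ± 0.132 CPM in Ptbp1-deficient cells and 0.416 ± 0.172 CPM in WT cells, on 13 to 85 counts per library and with no overlap. Slfnl1, a Schlafen-like gene, had 2 to 9 counts per library and was not tested.

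The counts and the FPKM put the members at different levels. Per length, in CPM per kilobase of annotated exon, Slfn5 led at 12.0 ± 2.55 in Ptbp1-deficient cells and 12.5 ± 1.09 in WT cells, ahead of the annotated Slfn2 identifier at 8.47 ± 1.79 and 8.37 ± 0.957. Slfn4 followed at 2.48 ± 0.777 in Ptbp1-deficient cells and 1.00 ± 1.00 in WT cells, Slfn9 at 1.62 ± 0.506 and 1.01 ± 0.121, and Slfn8 was lowest at 0.131 ± 0.0533 and 0.154 ± 0.0508. In FPKM, where Slfn4 is not listed, the order was the annotated Slfn2 identifier (36.9 ± 1.42 in Ptbp1-deficient cells and 28.9 ± 2.74 in WT cells), Slfn5, Slfn8 (5.76 ± 1.52 and 6.68 ± 0.937) and Slfn9 (2.45 ± 0.314 and 1.46 ± 0.134). In CPM per kilobase, means ± 1 SD overlap between Slfn5 and Slfn2 in Ptbp1-deficient cells, between Slfn4 and Slfn9 in both genotypes, and between Slfn4 and Slfn8 in WT cells. The ratio of CPM per kilobase to FPKM had a median of 0.722 over 11599 genes, with 0.251 and 1.29 as the 5th and 95th percentiles. Slfn5 (0.716) and Slfn9 (0.674) lay near the median, Slfn2 at 0.256, and Slfn8 at 0.0229, below which only 0.379% of genes lay. None of the stretches of 150 bases of Slfn2 or Slfn8 occurs in another annotated gene. The annotation used here lacks their additional identifiers, so sharing with those could not be measured. Reads that were not unique, 4.51% to 5.08% of each library, were kept out of the gene counts, and their part in these gaps was not tested.

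**Figure D3:**
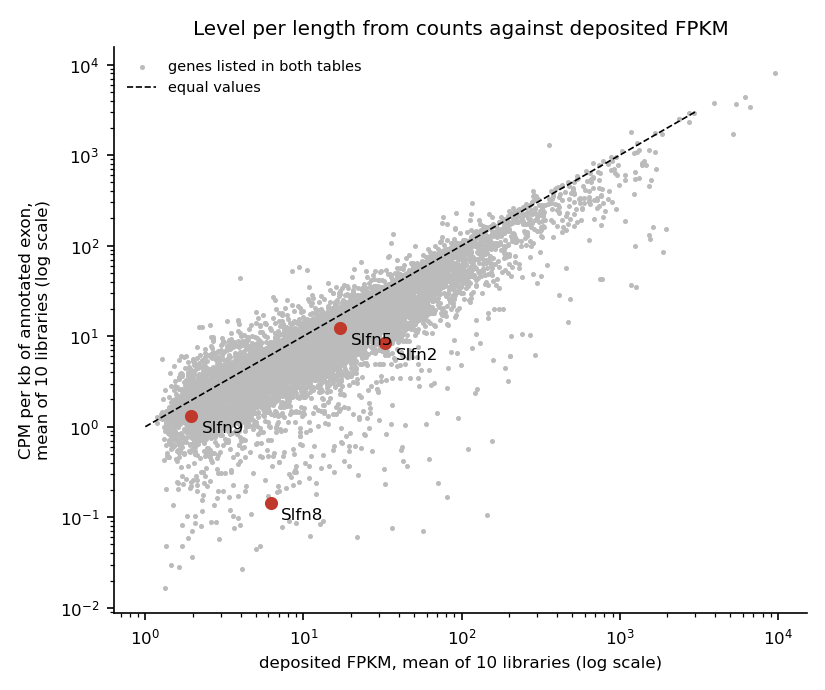
Mean CPM per kilobase of annotated exon against mean deposited FPKM over the 10 libraries, both on log scales, for genes in both tables (grey) and for 4 Schlafen genes (red). Slfn5 and Slfn9 lie in the body of the cloud, Slfn2 at its lower edge and Slfn8 far below it.

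The balance between members was compared as the log2 ratio of their counts within a library, over all 21 pairs of identifiers, with exact permutation tests adjusted over the 21. The balance differed between genotypes for 15 pairs, and for 9 to 14 when 1 library was left out (9 without Ptbp1-deficient replicate 2, 3 or 4 or WT replicate 1, 3 or 4), where fewer libraries also make the smallest p larger. The pairs reuse the 7 identifiers, and ratios between other genes were not measured, so this count has no background of its own beside the 45.0% of genes called. Among the pairs called are the 2 Slfn2 identifiers against each other and further pairs with an additional identifier. The 15 are thus pairs of identifiers and not of genes. Slfn9 gained on its long relative Slfn5: the log2 ratio of Slfn5 to Slfn9 was 3.00 ± 0.27 in Ptbp1-deficient cells and 3.71 ± 0.13 in WT cells (SD, n = 5 each; difference -0.71, adjusted p = 0.019). The ratio of the neighbours Slfn8 to Slfn9 was -4.13 ± 0.70 and -3.23 ± 0.47 in Ptbp1-deficient and WT cells (difference -0.90, adjusted p = 0.044). The annotated Slfn2 identifier and Slfn5 held nearly the same ratio in each library, at -2.43 ± 0.08 in Ptbp1-deficient cells and -2.50 ± 0.11 in WT cells, a difference of 0.08 that was not called (adjusted p = 0.28). This covers the counts of that identifier only. With counts summed by symbol, Slfn2 rose (log2 0.44, edgeR adjusted p = 0.0005) and Slfn5 was at -0.06. The ratio of the Slfn2 sum to Slfn5 was not compared.

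Called genes were not all next to each other along chromosome 11. Slfn9 (called higher) lies between Slfn5 and Slfn8 (neither called on its annotated identifier). Before the cluster, Rffl, a ubiquitin ligase gene, fell (log2 -0.44; edgeR adjusted p = 0.0024), while Rad51d, a gene of homologous recombination, and Nle1, a ribosome assembly gene, had log2 fold changes of -0.00 and -0.01 (adjusted p = 0.97 and 0.91). After it, 1700020L24Rik rose (log2 0.42, edgeR adjusted p = 0.046), while Ap2b1, a subunit of a clathrin adaptor, was not called (log2 0.09, adjusted p = 0.16). The 1700020L24Rik call was lost with upper-quartile normalization (edgeR adjusted p = 0.068) and with the replicate number as a block (0.11). It was also lost when most single libraries were left out, for example Ptbp1-deficient replicate 2 (edgeR adjusted p = 0.12).

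**Figure D4:**
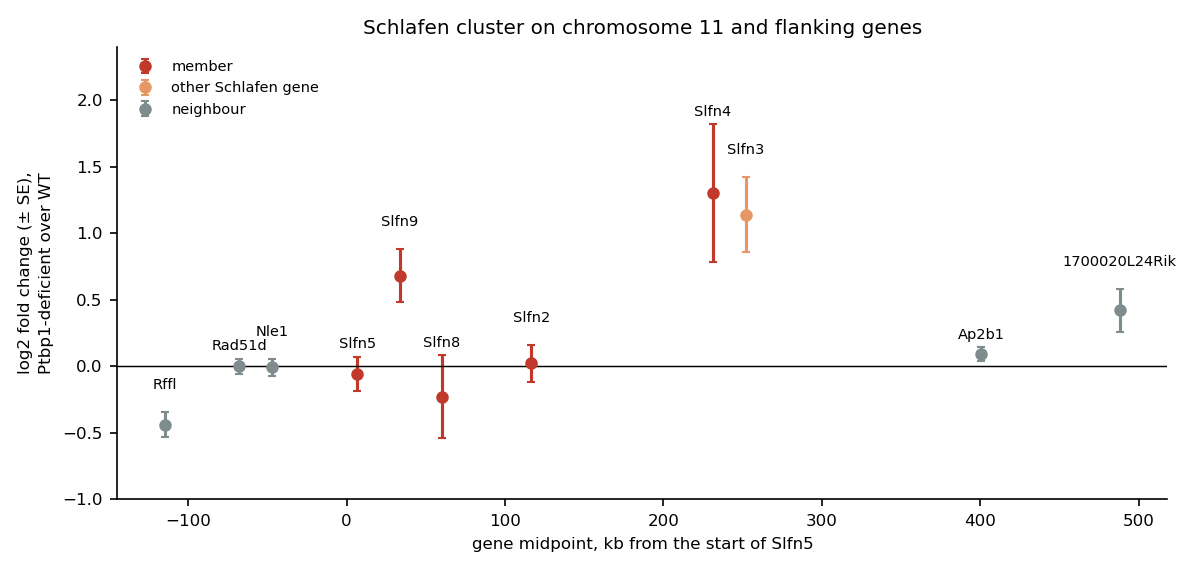
Log2 fold change of Ptbp1-deficient over WT cells (± SE, edgeR) for the annotated Schlafen genes tested and 5 flanking genes, against the distance of the gene's midpoint from the start of Slfn5. Slfn9, Slfn4 and Slfn3 lie highest, and Slfn5, Slfn8 and Slfn2 lie within 1 SE of 0.

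Interferon genes, the setting in which Schlafen genes are best known, moved strongly. Of 36 interferon-stimulated genes 35 rose, where 21.9% of all genes tested rose. Their median log2 fold change was 1.20, against -0.03 over all genes. Type I interferon signals through a receptor (Ifnar1, Ifnar2), the kinases Jak1 and Tyk2 and a complex with Stat2 and Irf9, which binds the response element named above. Of 10 receptor and signalling genes 6 rose and 2 fell (median 0.60). Stat2 averaged 325 ± 32.9 CPM in Ptbp1-deficient cells and 189 ± 19.4 CPM in WT cells (1.72-fold, edgeR adjusted p = 1.7e-05). Irf9 rose 1.34-fold, with the transcription factors Irf7 (3.65-fold) and Irf1 (1.97-fold) and the inhibitors of the pathway Usp18 (1.84-fold) and Socs1 (2.15-fold). The receptor chain Ifnar1 fell by 0.44 on the log2 scale and Jak1 by 0.22, while Ifnar2 (log2 0.08, adjusted p = 0.32) and Tyk2 (log2 -0.02, adjusted p = 0.68) were not called. Beside these, the log2 fold changes of the Schlafen identifiers ran between -0.75 (additional Slfn8 identifier) and 2.38 (additional Slfn2 identifier), with Slfn5 at -0.06.

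**Figure D5:**
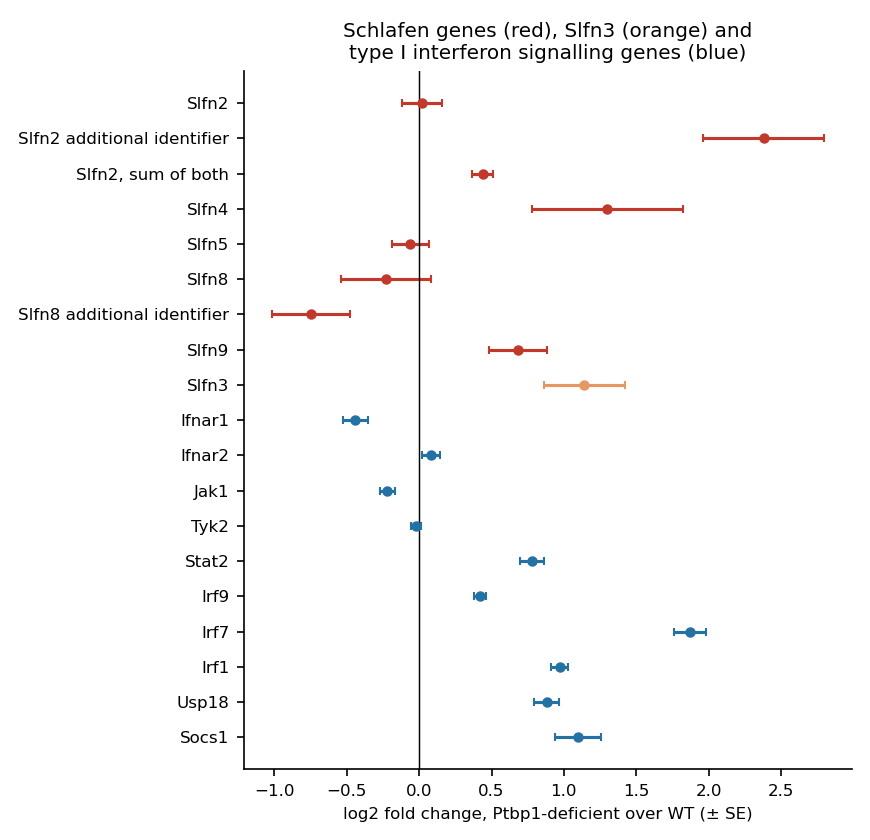
Log2 fold change of Ptbp1-deficient over WT cells (± SE, edgeR) of the Schlafen identifiers and the Slfn2 sum (red), Slfn3 (orange) and 10 type I interferon receptor and signalling genes (blue). Irf7 and Irf1 lie at 1.87 and 0.97, and Slfn5 and the annotated Slfn2 identifier at -0.06 and 0.02.

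Slfn2 acts on transfer RNA cleavage, so enzymes of that process and their restraints were read beside it. Of 5 genes tested, 4 rose (median log2 fold change 0.41), where 21.9% of all genes tested rose. Ang, a ribonuclease gene also chosen for this, is not listed in the count table. Rnh1, which inhibits secreted ribonucleases, averaged 146 ± 12.2 CPM in Ptbp1-deficient cells and 107 ± 6.64 CPM in WT cells (log2 0.45, edgeR adjusted p = 0.00013). Nsun2, which methylates transfer RNA and so protects it, rose by 0.41 on the log2 scale (edgeR adjusted p = 9.3e-05), and its fellow methyltransferase Trdmt1 was not called (0.24, adjusted p = 0.075). The ribonuclease genes Rnaset2a and Rnaset2b, close copies whose reads may be split between them, rose by 0.36 and 0.51 on the log2 scale (edgeR adjusted p = 0.0034 and 0.00075).

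Genes whose pattern over the 10 libraries lay closest to a member were found by the root mean square difference of log2 CPM, after centring on the WT mean, among 9666 genes. Slfn9 was nearest to Aif1, which encodes an actin-binding protein of macrophages, and Txndc17, a thioredoxin-like gene (0.17 each). Slfn5 lay nearest to Tstd3 (0.12) and Ccdc93 (0.13), and the annotated Slfn2 identifier to Bet1 and Acot9 (0.14 each). For Slfn4 the nearest were Ly6c2, a surface antigen of monocytes (0.50), and Pacsin1 (0.59). Both also had WT replicate 5 above the other WT libraries, which the choice favours because that library was part of it. The additional Slfn2 identifier lay nearest to Olfr433 (0.58), an olfactory receptor gene, and Txlnb (0.63). The distances of Slfn4 and of this identifier were the largest of those named, so neither had a close match. Slfn8 lay nearest to Atat1 (0.34) and Il11ra1 (0.35), and its additional identifier to Tpcn1 (0.21) and Rsad1 (0.22).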

How the data were processed

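The labels' protocols give TRIzol extraction, poly(A) RNA and paired 150 bp reads on an Illumina HiSeq. The deposited count table holds the authors' unnormalized counts per gene, with at least 2 in every library. The deposited FPKM table holds the authors' values for 11968 identifiers, at least 1.00 in every library. HISAT2, StringTie and DESeq2 were used, per the submitters' processing notes, which also name the human build GRCh38 although the identifiers are mouse ones. Which program counted the reads, and whether it used strand, is not given in the sources used. Genes held 69.4% to 74.1% of each library's counts, and ambiguous reads 1.78% to 1.94%. GENCODE M21 named 19035 identifiers (99.3%), and symbols of 101 more came from the deposited FPKM table.

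Counts were filtered with filterByExpr (18248 tested, 930 removed), normalized by TMM and compared with edgeR 4.0.16's quasi-likelihood test (R 4.3.3), genotype being the only term and a Benjamini-Hochberg adjusted p under 0.05 a call. FPKM were compared with limma 3.58.1 on log2(FPKM + 1). Fold changes on that scale understate those of low genes. Shares and log2 ratios (prior count 2) were compared by two-sided exact permutation over 252 assignments of libraries. CPM are TMM-normalized. The edgeR step was tested on simulated data with 200 changed genes. The members, lists and tests were chosen with earlier results of these data known. Genes named are the members, other Schlafen genes, the interferon signalling and transfer RNA lists and Ptbp1. Added to these are 2 nearest patterns per identifier among genes with at least 5 CPM, and up to 3 flanking genes per side. Of any other list, up to 3 abundant genes are named, not always its most abundant. Alternatives were upper-quartile and RLE normalization, other filters, DESeq2 1.42.0, a replicate block, pseudocounts, an adjusted p under 0.01 and leaving out libraries. Summing identifiers of 1 symbol was added after the data were seen. Some genes these rules name are not reported here and are left out of the list counts.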

Additional observations from a re-analysis of the deposited data

Results flagged for a closer look

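In 98 groups of 5 libraries, each holding the values of 1 named gene in 1 genotype, 13 single libraries stood apart from the other 4 by Dixon's criterion. Chance marks about 1 in 20 independent groups. These groups share libraries, and nearest-pattern genes were chosen to follow a member over those same libraries. The 13 can therefore not be set against that rate. Of the members, Slfn4 had 10.9 CPM in WT replicate 5, against 0.988 to 3.39 CPM in the other WT libraries, and the annotated Slfn8 identifier had 0.999 CPM in WT replicate 1, against 0.495 to 0.562 CPM. WT replicate 5 also stood apart in Ly6c2 (50.4 CPM, the others 6.20 to 11.7), Pacsin1 (19.9 CPM, the others 3.56 to 5.62), Ifnar2 (116 CPM, the others 133 to 139), Jak1 (292 CPM, the others 246 to 252), Rad51d (44.1 CPM, the others 51.4 to 53.3) and 1700020L24Rik (2.35 CPM, the others 1.78 to 1.92). WT replicate 1 did so in Stat2 (222 CPM, the others 172 to 186) and Il11ra1 (18.0 CPM, the others 12.5 to 13.6), and WT replicate 3 in Tyk2 (231 CPM, the others 243 to 247). Among Ptbp1-deficient libraries, replicate 3 stood apart in Ap2b1 (178 CPM, the others 158 to 164) and replicate 4 in Il11ra1 (12.2 CPM, the others 9.96 to 10.6).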

How the results depend on the processing

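The rises of the additional Slfn2 identifier (log2 2.17 to 2.68 when 1 library was left out) and of Slfn9 (0.57 to 0.81) were called under each single library left out. For Slfn9 the log2 fold change of 0.68 was no longer called at an adjusted p under 0.01, which left 1 Schlafen identifier called higher. Leaving out 1 library gave 2 to 3 called higher and 0 to 1 called lower.

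The annotated Slfn2 identifier gave a log2 fold change of -0.03 with upper-quartile normalization, -0.00 without WT replicates 1 and 5, and -0.07 to 0.11 with 1 library left out, none of which was called. It was called at 0.35 (log2(FPKM + 1), with and without a floor of 1 FPKM) and 0.36 (log2(FPKM + 0.1)), and the sum of both identifiers at 0.44 in counts and 0.45 in FPKM. Slfn4 was called with WT replicates 1 and 5 left out (2.37) and ran from 1.05 to 2.11 with 1 library left out. Slfn5 was at 0.12 without Ptbp1-deficient replicates 1 and 2 and at -0.17 to 0.03 with 1 library left out. The annotated Slfn8 identifier ran from -0.40 to 0.00.

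The call on the additional Slfn8 identifier was lost in DESeq2 (-0.74), in FPKM (-0.17 with a pseudocount of 1, with and without the floor, and -0.20 with 0.1), without WT replicates 1 and 5 (-0.76), without Ptbp1-deficient replicates 1 and 2 (-0.53) and at an adjusted p under 0.01 (-0.75). It ran from -0.98 to -0.66 with 1 library left out. A floor of 1 CPM in 5 libraries left 5 identifiers tested. In each of these settings, single libraries left out aside, 0 Schlafen identifiers were called lower, and at an unadjusted p under 0.05 edgeR and DESeq2 had 1 lower, except 0 under that floor, without Ptbp1-deficient replicates 1 and 2 and in limma on FPKM. The causes were not tested.

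The replicate numbers did not pair the libraries: same-numbered libraries deviated together with correlations of -0.0962 to 0.114. With the replicate number as a block, Slfn4 was called (1.73, edgeR adjusted p = 0.035), and the additional Slfn8 identifier was not (-0.79, edgeR adjusted p = 0.092), which left 0 called lower.

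Of the 21 ratios between identifiers of the members 15 differed, and 9 to 14 with 1 library left out. Levels per length in CPM per kilobase differed from FPKM for each member: 8.47 and 8.37 for Slfn2, 12.0 and 12.5 for Slfn5, 0.131 and 0.154 for Slfn8, and 1.62 and 1.01 for Slfn9, in Ptbp1-deficient and WT cells. Over all genes 3998 were called higher, and 2419 in log2(FPKM + 1) (with and without the floor), 2407 with a pseudocount of 0.1 and 2391 with identifiers of 1 symbol summed, in a table that lists fewer genes.

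Values near 0 changed sign in some settings, with no call on either side. Rad51d was at 0.00 with RLE and in DESeq2, 0.01 without a filter, and -0.05 to 0.02 with 1 library left out, and Nle1 at 0.00 without a filter and -0.05 to 0.01. Ap2b1 was at -0.02 in FPKM. Bet1 was at 0.01 without a filter, 0.00 in DESeq2, 0.09 without Ptbp1-deficient replicates 1 and 2, and -0.05 to 0.03. Acot9 was at -0.02 with upper-quartile normalization, -0.10 and -0.11 in FPKM with pseudocounts of 1 and 0.1, and -0.01 to 0.07. Ccdc93 was at 0.00 without WT replicates 1 and 5, 0.06 without Ptbp1-deficient replicates 1 and 2, and -0.11 to -0.00.

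Counts were lowest for Slfn8, with 10 to 66 per library on either identifier. The widest intervals were those of Slfn4 (SE 0.52) and the additional Slfn2 identifier (SE 0.42), and the shares of depth and of spread between libraries in them were not tested.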
